A study of Homo sapiens with 4 samples.

Results

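Fatty acid and glycerolipid synthesis was described across 34 genes, which encode enzymes and a citrate carrier of the route from acetyl-CoA to stored and membrane lipid and, in MLXIPL, a transcription factor of the route. The genes were chosen by pathway, with earlier results of these data known. All 34 were found, by current or older symbol, among the 19554 genes named in the deposited table, and for a gene with several probe sets the brightest was used. RNA of U87MG, a long-established line grown from a human malignant glioma, was hybridised to 4 Affymetrix Human Gene ST arrays. In 2 samples the cells carried the wild-type form of CD13/APN, the membrane alanyl-aminopeptidase that trims peptides at the cell surface from their N-terminal end, in a construct whose name includes EGFP. In the other 2 they carried its L243P form, described in the labels as inactive, in the matching EGFP construct. The replicates of a group came from independent experiments, growth was stated to be comparable, and each group carries 1 clone label, so that genotype and clone cannot be told apart and p-values measure only the spread between samples of a clone. Intensities are on a linear scale and are given for replicate 1 and then replicate 2 of each group. A log2 change sets L243P against wild type and is given with its standard error (SE) from limma, whose p-values were adjusted over all 27532 rows tested.

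Cells make fatty acids in the cytosol from citrate that leaves the mitochondrion and is cleaved to acetyl-CoA. The carboxylase and the synthase build palmitate from it, elongases and desaturases of the endoplasmic reticulum lengthen it and insert double bonds, and ligases activate the products with coenzyme A for esterification to glycerol. The transcription factors SREBP-1 and SREBP-2 (SREBF1 and SREBF2) induce many of these genes and those of sterol synthesis when membrane sterol is low, and proliferating glioma cells are known to depend on this programme for new membrane.

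In the L243P clone, both arrays lay above both wild-type arrays for 3 of 4 supply genes and 3 of 3 synthesis genes. The same held for 4 of 5 desaturases, 2 of 5 ligases of activation, 1 of 7 elongases and 2 of 9 genes of esterification. ME1 was the exception in supply and SCD5 among the desaturases. Both L243P arrays were above for 15 of the 34 members (44.1%, against 17.0% of all named genes), with log2 changes from 0.14 to 1.32. Both were below for 5 members (14.7%, against 20.9% of all named genes), with log2 changes from -0.28 to -0.10, and the groups overlapped for 14. The gap could be narrow, as in LPIN2 (213 in wild type, 214 in L243P) and DGAT1 (235 in wild type, 234 in L243P). Of the members, 27 lay in the brighter 50% of rows. The share among all genes of like brightness was not computed, here or for the other lists. None of the members passed the test at an adjusted p of 0.05 in limma, where 0.967% of all named genes did. At an unadjusted p under 0.05 there were 12 members, all higher in L243P (35.3%, against 6.75% of all named genes on that side). Median centring of each array brought 5 members past the test, all higher, with 2.57% of all named genes called in either direction and 1.44% on the higher side. Centring left 0 rows without spread within groups, against 836, and raised the prior degrees of freedom of limma from 3.95 to 18. The median log2 change of the members was 0.05 with centring, so passes under this setting are not further evidence of a difference. Leaving out the dimmer 50% of rows brought 2 of 27 remaining members past it, both higher, with 3.68% and 2.15% called. Subtracting the median change of the nearest genes left 0 members, with 0.501% called and 0.225% on the higher side. The median log2 change over the 34 members was 0.02, beside -0.02 over all named genes. By step, the median was 0.29 over the 4 supply genes, 0.57 over the 3 synthesis genes and 0.83 over the 5 desaturases. It was 0.01 over the 5 ligases of activation, -0.02 over the 7 elongases and -0.02 over the 9 genes of esterification.

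**Figure D1:**
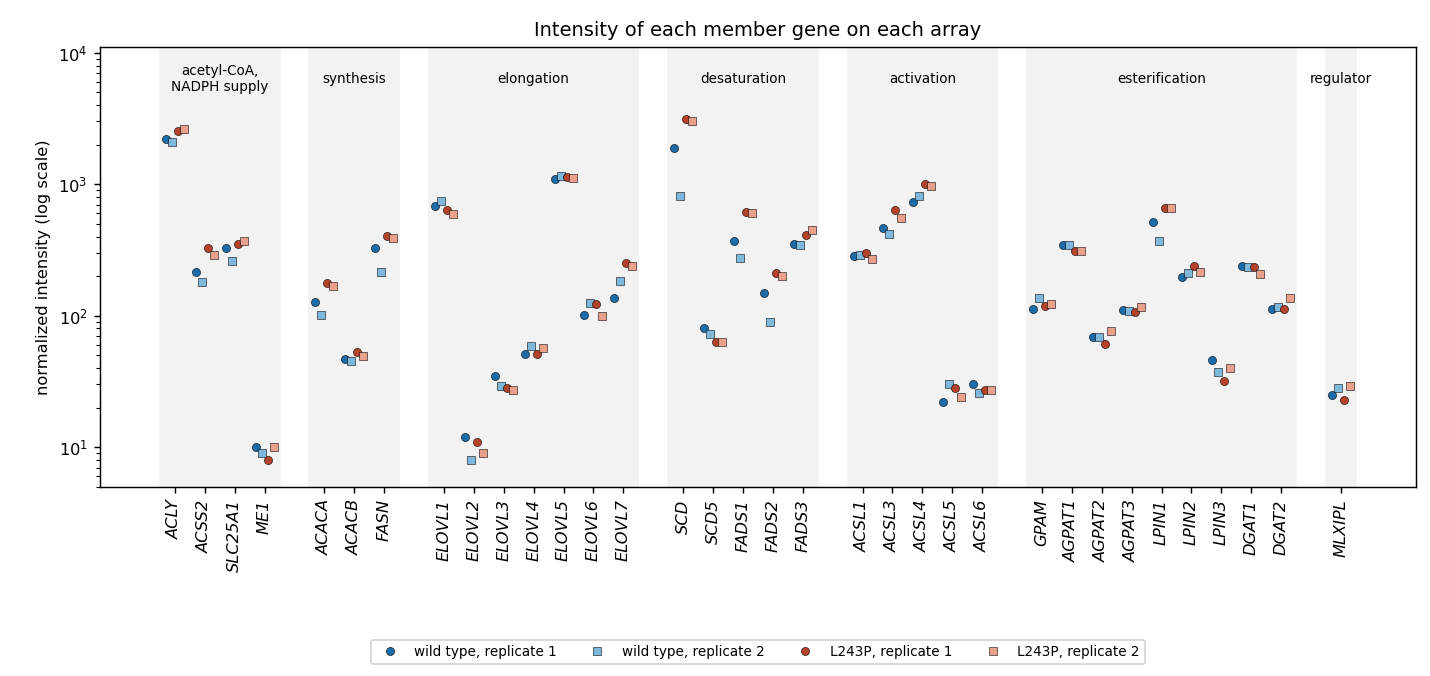
Normalized intensity (vertical axis, log scale) of each of the 34 member genes on each of the 4 arrays, grouped by step; circles are replicate 1 and squares replicate 2. SCD ranged from 807 to 3127, and wild-type replicate 2 was the lowest array for 12 of the 15 members that were higher in L243P.

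Promoter sequences are given for 3 of the desaturases, as RefSeq records them in GRCh38.p14. SCD and FADS1 had the largest log2 changes of the 34 members, and SCD5, the second stearoyl-CoA desaturase of humans, differed in the other direction. Each stretch runs 5′ to 3′ on the gene's strand, from 250 bases before the transcript start to 50 after it. Capitals mark the CCAAT box, bound by NF-Y, and the GC box GGGCGG, bound by Sp1, or their reverse complements; both factors are known partners of SREBP at lipid gene promoters. The SCD stretch is chr10:100346983-100347282 on the plus strand, that of FADS1 is chr11:61816954-61817253 on the minus strand, and that of SCD5 is chr4:82798747-82799046 on the minus strand.
SCD: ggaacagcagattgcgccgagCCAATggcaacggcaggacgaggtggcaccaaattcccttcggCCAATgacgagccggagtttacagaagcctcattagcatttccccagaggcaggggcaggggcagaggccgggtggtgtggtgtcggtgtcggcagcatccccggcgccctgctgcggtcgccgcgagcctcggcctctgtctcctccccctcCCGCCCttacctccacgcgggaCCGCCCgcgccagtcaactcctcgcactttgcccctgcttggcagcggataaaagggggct
FADS1: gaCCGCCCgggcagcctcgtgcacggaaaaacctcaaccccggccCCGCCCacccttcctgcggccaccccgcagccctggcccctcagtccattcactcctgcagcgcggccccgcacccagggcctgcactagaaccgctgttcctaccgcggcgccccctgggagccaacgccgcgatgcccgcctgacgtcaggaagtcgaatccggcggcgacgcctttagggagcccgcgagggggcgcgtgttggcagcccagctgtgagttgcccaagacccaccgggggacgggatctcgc
SCD5: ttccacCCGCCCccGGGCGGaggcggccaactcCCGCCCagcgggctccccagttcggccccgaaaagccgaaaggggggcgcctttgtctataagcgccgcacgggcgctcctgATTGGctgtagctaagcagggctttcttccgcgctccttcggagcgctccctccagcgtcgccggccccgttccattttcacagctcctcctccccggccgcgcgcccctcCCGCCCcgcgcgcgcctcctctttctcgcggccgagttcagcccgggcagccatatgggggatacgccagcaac
SCD held 2 CCAAT boxes and 2 GC boxes, FADS1 held 0 and 2, and SCD5 held 1 and 4. The search covered both strands for the CCAAT box and the GC box, for the sterol regulatory element letters TCACNCCAC (N for any base) and for the E-box CACGTG, and no matches overlapped in these 3 windows. Of the 34 members, 30 had at least 1 promoter in the table, with 55 windows in all. The CCAAT box was in 22 of the 55 (40.0%, against 34.6% of 34796 promoters of all genes), the GC box in 38 (69.1%, against 44.9%), CACGTG in 3 (5.45%, against 7.20%) and the sterol element in 2 (3.64%, against 1.12%). Those 2 windows belong to ACSL1 and ACSL6. A match is a run of letters and not a measured site, and windows of 1 gene can share sequence.

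Desaturation held the members with the largest changes. SCD, which places the first double bond in stearate and palmitate, was at 1889 and 807 in the wild-type arrays and at 3127 and 3037 in the L243P arrays. Both L243P arrays were above both wild-type arrays, but the wild-type arrays themselves differed 2.34-fold. The log2 change of SCD was 1.32 (SE 0.36, 95% interval 0.43 to 2.21), a 2.50-fold difference that did not pass (limma, adjusted p = 0.23). Against wild-type replicate 1 alone the L243P level of SCD was 1.63-fold higher, and against replicate 2 alone 3.82-fold higher. Its adjusted p was 0.55 with median centring and 0.087 without the dimmer rows, so it passed in neither. SCD5, its relative, was at 81 and 72 in wild type and at 63 and 63 in L243P. The groups did not overlap, and the direction was opposite to that of SCD (log2 change -0.28, SE 0.13, adjusted p = 0.49). The 20 nearest measured genes of SCD5 on chromosome 4 had a median log2 change of -0.37, and once that was subtracted SCD5 was at 0.09.

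FADS1, FADS2 and FADS3 neighbour each other on chromosome 11. FADS1 and FADS2 are the front-end desaturases that make polyunsaturated fatty acids such as arachidonic acid, and FADS3 is a related enzyme that acts on sphingoid bases. FADS1 was at 370 and 273 in wild type and at 614 and 608 in L243P. This 1.92-fold difference (log2 change 0.94, SE 0.15) missed the threshold (limma, adjusted p = 0.068). FADS1 had the smallest adjusted p of all members. It passed after each array was centred on its median (adjusted p = 0.00069) and when the dimmer 50% of rows were left out (0.017). The log2 change of FADS1 hardly moved in these settings, at 0.97 and 0.94. FADS2 was at 148 and 90 in wild type and at 210 and 201 in L243P (log2 change 0.83, SE 0.23, adjusted p = 0.23). As in SCD, wild-type replicate 2 was the lowest array, and FADS2 passed with median centring (adjusted p = 0.026). FADS3 was at 349 and 344 in wild type and at 414 and 451 in L243P, a smaller change with close replicates (log2 change 0.32, SE 0.085, adjusted p = 0.22). The 20 nearest measured genes of each of the FADS genes had a median log2 change of -0.05. In the authors' deposited table, SCD, FADS1 and FADS2 were the 3 members at a proportion of false positives (pfp, from a rank product test) of 0.15 or lower, with values of 0.0323, 0.079 and 0.142, where 0.440% of all probe sets reached that limit on the higher side. The fold changes of these genes in the authors' deposited table were 2.3, 1.9 and 1.7.

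In the synthesis step, all 3 genes had both L243P arrays above both wild-type arrays. ACACA encodes the cytosolic acetyl-CoA carboxylase that commits carbon to fatty acids, and it was at 127 and 101 in wild type and at 178 and 169 in L243P (log2 change 0.61, SE 0.14, adjusted p = 0.15). It passed with median centring (adjusted p = 0.030). FASN, the fatty acid synthase, was at 329 and 214 in wild type and at 401 and 388 in L243P (log2 change 0.57, SE 0.20, adjusted p = 0.34). The wild-type arrays of FASN lay 1.54-fold apart, more than the 1.20-fold between the L243P level and wild-type replicate 1. ACACB, the mitochondrial form of the carboxylase that is known to restrain fatty acid oxidation, was at 47 and 45 in wild type and at 53 and 49 in L243P. Its log2 change of 0.15 had a 95% interval from -0.17 to 0.47 (adjusted p = 0.77). The median of the 3 genes was 0.26 once wild-type replicate 2 was left out, and 0.78 once replicate 1 of that group was.

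Of the 4 genes that supply acetyl-CoA and NADPH, 3 had both L243P arrays above both wild-type arrays. ACSS2, the cytosolic ligase that makes acetyl-CoA from acetate, was at 215 and 179 in wild type and at 326 and 291 in L243P (log2 change 0.65, SE 0.12, adjusted p = 0.11). It had the largest change of the step and passed with median centring (adjusted p = 0.017) and without the dimmer 50% of rows (0.038). ACLY, which cleaves citrate, was at 2193 and 2087 in wild type and at 2559 and 2629 in L243P (log2 change 0.28, SE 0.071, adjusted p = 0.20). SLC25A1, the carrier that exports citrate from the mitochondrion, was at 327 and 262 in wild type and at 354 and 367 in L243P (log2 change 0.30, SE 0.12, adjusted p = 0.43), and the log2 change of SLC25A1 lay between 0.14 and 0.46 with 1 array left out. ME1, the cytosolic malic enzyme that yields NADPH, was dim, at 10 and 9 in wild type and at 8 and 10 in L243P, where the array medians were 46 to 50. No detection calls were used, and background was not separated from signal for such genes. Of the members, 7 lay in the dimmer 50% of rows, with intensities from 8 to 46, namely ME1, ELOVL2, ELOVL3, ACSL5, ACSL6, LPIN3 and MLXIPL.

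Among the 7 elongases, 1 was higher and 2 were lower in both L243P arrays, and the difference from the other steps was not tested. ELOVL7, an elongase of saturated very long chains, was the higher one. It was at 137 and 183 in wild type and at 252 and 240 in L243P (log2 change 0.64, SE 0.15, adjusted p = 0.18). Here wild-type replicate 1 was the lower of the pair, the reverse of SCD, FADS1, FADS2 and FASN. ELOVL6, which extends palmitate to stearate and is a known SREBP-1 target, was at 101 and 125 in wild type and at 123 and 99 in L243P. The ranges of the groups were nearly the same, and its log2 change was -0.03 with a 95% interval from -0.43 to 0.38 (adjusted p = 1.0). ELOVL5, the elongase of polyunsaturated chains that works beside FADS1 and FADS2, was at 1100 and 1163 in wild type and at 1137 and 1106 in L243P. Its interval was the narrower one, from -0.19 to 0.17 around a log2 change of -0.01. ELOVL1, which makes saturated very long chains, was at 680 and 744 in wild type and at 641 and 591 in L243P, lower in both L243P arrays (log2 change -0.21, SE 0.087, adjusted p = 0.44). ELOVL2 was at 8 to 12, ELOVL3 at 27 to 35 and ELOVL4 at 51 to 59 over the 4 arrays, with log2 changes of 0.02, -0.21 and -0.02.

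**Figure D2:**
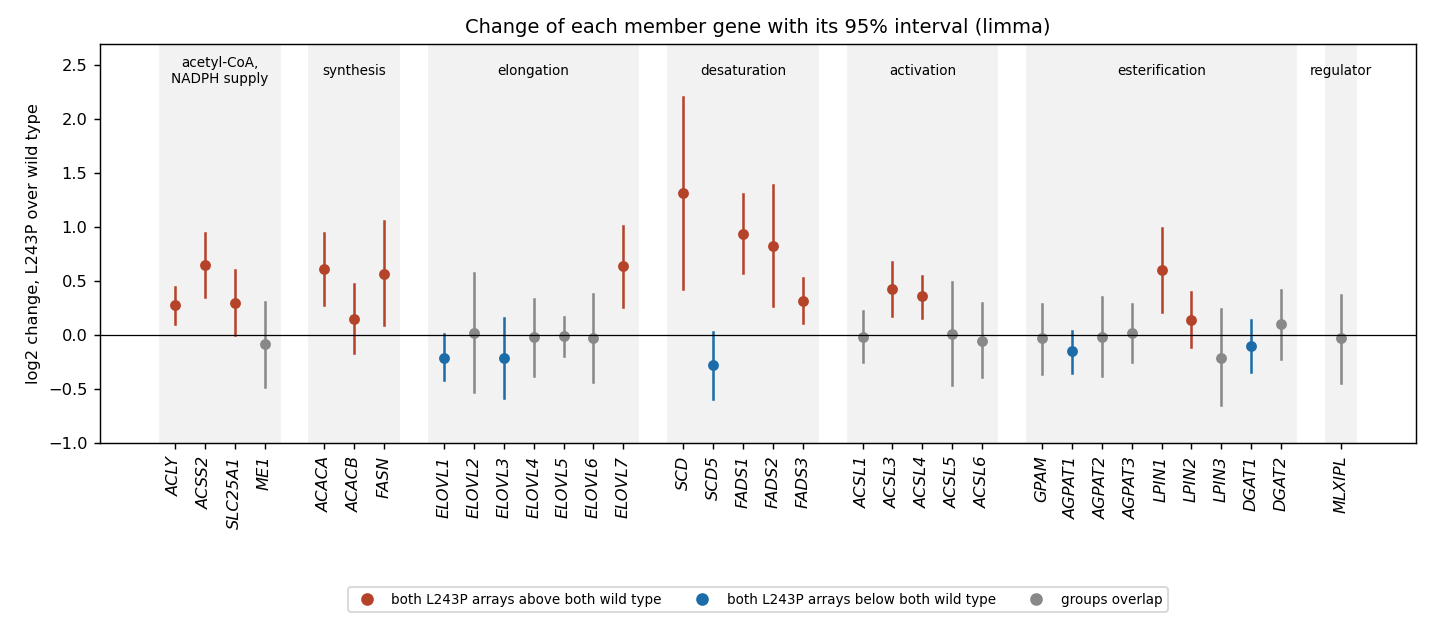
Log2 change of L243P over wild type (points) with the 95% interval from limma (bars) for each member gene, by step; colours show whether the 2 arrays of each group overlap. The 3 synthesis genes and 4 of the 5 desaturases lie above 0, with SCD at 1.32 (0.43 to 2.21) and FADS1 at 0.94 (0.58 to 1.31), while SCD5 lies at -0.28 and ELOVL6 and GPAM at -0.03 each.

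Activation split by isoform. The long-chain ligases ACSL3 and ACSL4 were higher in both L243P arrays, and ACSL1 was not. ACSL3, a ligase known from lipid droplets and the endoplasmic reticulum, was at 467 and 418 in wild type and at 636 and 558 in L243P (log2 change 0.43, SE 0.10, adjusted p = 0.18). ACSL4, which prefers arachidonic acid, was at 735 and 808 in wild type and at 1000 and 974 in L243P (log2 change 0.36, SE 0.081, adjusted p = 0.16). With any 1 array left out the log2 change was 0.34 to 0.53 for ACSL3, whose L243P arrays lay further apart than those of any other of the 15 higher members, and 0.29 to 0.43 for ACSL4. ACSL1, named FACL1 in the table, was at 286 and 289 in wild type and at 302 and 268 in L243P, with a 95% interval of -0.25 to 0.22 for its log2 change. ACSL5 at 22 to 30 and ACSL6 at 26 to 30 were dim on all 4 arrays and overlapped between the groups.

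Among the 9 genes of esterification, LPIN1 had the largest log2 change. LPIN1 encodes a phosphatidate phosphatase that supplies diacylglycerol and also acts as a nuclear coregulator. It was at 517 and 370 in wild type and at 661 and 664 in L243P (log2 change 0.60, SE 0.16, adjusted p = 0.22), with wild-type replicate 2 lowest, and it passed with median centring (adjusted p = 0.031). LPIN2, its relative, was at 197 and 213 in wild type and at 239 and 214 in L243P (log2 change 0.14, SE 0.10, adjusted p = 0.71), and LPIN3 at 32 to 46 overlapped between the groups. GPAM, the mitochondrial acyltransferase that starts glycerolipid synthesis and is another known SREBP-1 target, was at 112 and 137 in wild type and at 119 and 123 in L243P. Both L243P values lay inside the wild-type range (log2 change -0.03, 95% interval -0.36 to 0.29, adjusted p = 0.98).

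The acyltransferases of the next step and of triacylglycerol were flat or slightly lower. AGPAT1, which makes phosphatidic acid, was at 347 and 347 in wild type and at 311 and 313 in L243P (log2 change -0.15, SE 0.079, adjusted p = 0.54). The 3 probe sets of AGPAT1 gave the same 4 values, as did the 2 of DGAT1. AGPAT2 at 61 to 76 and AGPAT3 at 107 to 116 overlapped between the groups. DGAT1, which completes triacylglycerol, was at 238 and 235 in wild type and at 234 and 208 in L243P (log2 change -0.10, SE 0.099, adjusted p = 0.81), and DGAT2, the other enzyme of that step, was at 113 and 117 in wild type and at 112 and 136 in L243P (log2 change 0.10, SE 0.13, adjusted p = 0.85). MLXIPL, the carbohydrate-responsive factor ChREBP, was at 25 and 28 in wild type and at 23 and 29 in L243P, and its groups overlapped.

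The difference between the wild-type arrays ran through the members that were higher in L243P. Wild-type replicate 2 was below replicate 1 in 12 of these 15 members, and in 20 of all 34 (58.8%), where 45.8% of all named genes had that order. The log2 difference of wild-type replicate 2 from replicate 1 had a median of -0.26 over the 15 members and 0.00 over all named genes, and it reached -1.23 in SCD. Between the L243P arrays the same difference was between -0.19 and 0.12 in these members, with a median of -0.05. Against wild-type replicate 1 alone, the L243P level was higher by 0.71 in SCD, 0.72 in FADS1, 0.47 in FADS2, 0.26 in FASN and 0.36 in LPIN1 on the log2 scale. Against wild-type replicate 2 alone, the differences were 1.93, 1.16, 1.19, 0.88 and 0.84 in the same genes. The sign of these values is set by the choice of members without overlap, and only their size is a measurement: it depended on which wild-type array was used. What set wild-type replicate 2 apart was not tested.

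**Figure D3:**
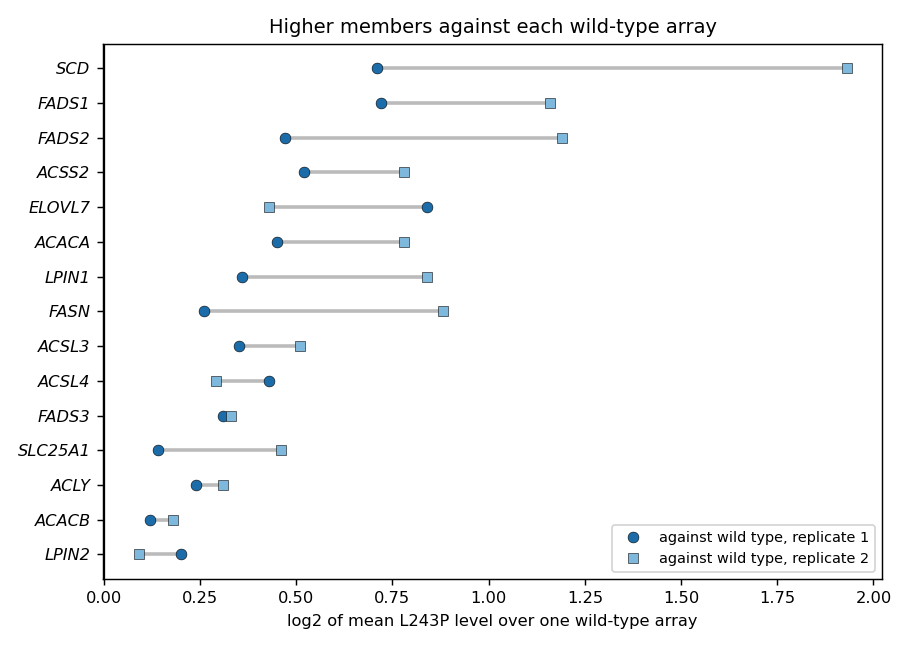
Log2 of the mean L243P level over wild-type replicate 1 (circles) and over wild-type replicate 2 (squares) for the 15 members with both L243P arrays above both wild-type arrays; grey lines join the values of a gene. All points lie above 0 by the choice of genes, and SCD spans the widest range, from 0.71 to 1.93.

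Among 20 genes that control lipid synthesis, 0 passed the test, and the median log2 change was 0.04. Both L243P arrays were higher for 9 (45.0%, against 17.0% of all named genes) and lower for 3 (15.0%, against 20.9%). At an unadjusted p under 0.05 there were 3 higher and 1 lower, where 6.75% of all named genes were on each side. SREBF1, which encodes SREBP-1, was at 187 and 152 in wild type and at 191 and 215 in L243P (log2 change 0.27, SE 0.13, adjusted p = 0.54). SREBF2 was at 217 and 131 in wild type and at 253 and 247 in L243P (log2 change 0.57, SE 0.23, adjusted p = 0.42). Both depended on the wild-type array: against replicate 1 alone the log2 differences were 0.12 for SREBF1 and 0.20 for SREBF2, and against replicate 2 alone 0.41 and 0.93. INSIG1, an SREBP target that retains the precursor in the endoplasmic reticulum, was at 1005 and 601 in wild type and at 1019 and 1013 in L243P. Its wild-type replicate 1 thus lay just below both L243P arrays, and the log2 change was 0.39 (SE 0.23, adjusted p = 0.61). NR1H3, the oxysterol receptor LXR-alpha and an inducer of SREBF1, was at 93 and 95 in wild type and at 153 and 131 in L243P (log2 change 0.59, SE 0.12, adjusted p = 0.13), and it passed with median centring (adjusted p = 0.044). PPARG, the nuclear receptor that drives adipocyte formation, had the largest log2 change of the list and was named after its values were seen. PPARG was at 39 and 37 in wild type and at 61 and 72 in L243P (log2 change 0.80, SE 0.14, adjusted p = 0.091), and it passed with median centring (0.005) and without the dimmer 50% of rows (0.036). MLX, the partner of MLXIPL, and THRSP and MID1IP1, which bind acetyl-CoA carboxylase or its regulator, had log2 changes of 0.03, 0.16 and 0.28 (adjusted p = 0.94, 0.73 and 0.48).

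Sterol synthesis shares SREBP control with the fatty acid genes. Of 21 measured sterol genes, 19 had both L243P arrays higher (90.5%, against 17.0% of all named genes) and 0 both lower (against 20.9%). The median log2 change of the sterol genes was 0.56, beside 0.02 over the 34 fatty acid and glycerolipid genes. Wild-type replicate 2 was below replicate 1 in 16 of the 21 (76.2%, against 45.8% of all named genes), and the part of this in the result was not tested. At an unadjusted p under 0.05 in limma there were 19 sterol genes, all higher (90.5%, against 6.75% of all named genes on that side). IDI1 and FDPS passed the test there (adjusted p = 0.038 and 0.033), where 0.430% of all named genes passed on the higher side. They also passed with median centring (0.00032 and 0.0033) and without the dimmer 50% of rows (0.0084 and 0.0086). They did not pass after the change of their nearest genes was subtracted (0.06 and 0.07) or with the default prior (0.26 for each). HMGCS1, at 253 and 185 in wild type and 436 and 395 in L243P, and HSD17B7, at 47 and 67 and then 117 and 101, had log2 changes of 0.94 and 0.95 (adjusted p = 0.081 and 0.13). The difference between the branches was not tested.

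In the rest of the fatty acid and glycerolipid route, 25 genes were measured and their median log2 change was -0.02. GPAT3, the microsomal glycerol-3-phosphate acyltransferase named AGPAT9 in the table, was the single one to pass, and it fell. On the lower side 0.537% of all named genes passed. AGPAT9 is also an older symbol of LPCAT1, and the row was read as GPAT3 because LPCAT1 has its own row. GPAT3 was at 542 and 682 in wild type and at 214 and 213 in L243P (log2 change -1.51, SE 0.12, adjusted p = 0.014), a 2.85-fold lower level. Its 20 nearest measured genes on chromosome 4 had a median log2 change of -0.31, and GPAT3 still passed once that was subtracted (limma, adjusted p = 0.03). GPAT4, named AGPAT6 in the table, makes the same product and was at 653 and 664 in wild type and at 557 and 535 in L243P (log2 change -0.27, SE 0.074, adjusted p = 0.23). With GPAM at -0.03, none of these 3 enzymes of the first esterification was higher in L243P. IDH1, the cytosolic isocitrate dehydrogenase that yields NADPH, was at 1124 and 828 in wild type and at 1701 and 1710 in L243P (log2 change 0.82, SE 0.14, adjusted p = 0.089). HACD1, a dehydratase of the elongation cycle, had a log2 change of 0.35 (adjusted p = 0.29).

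**Figure D4:**
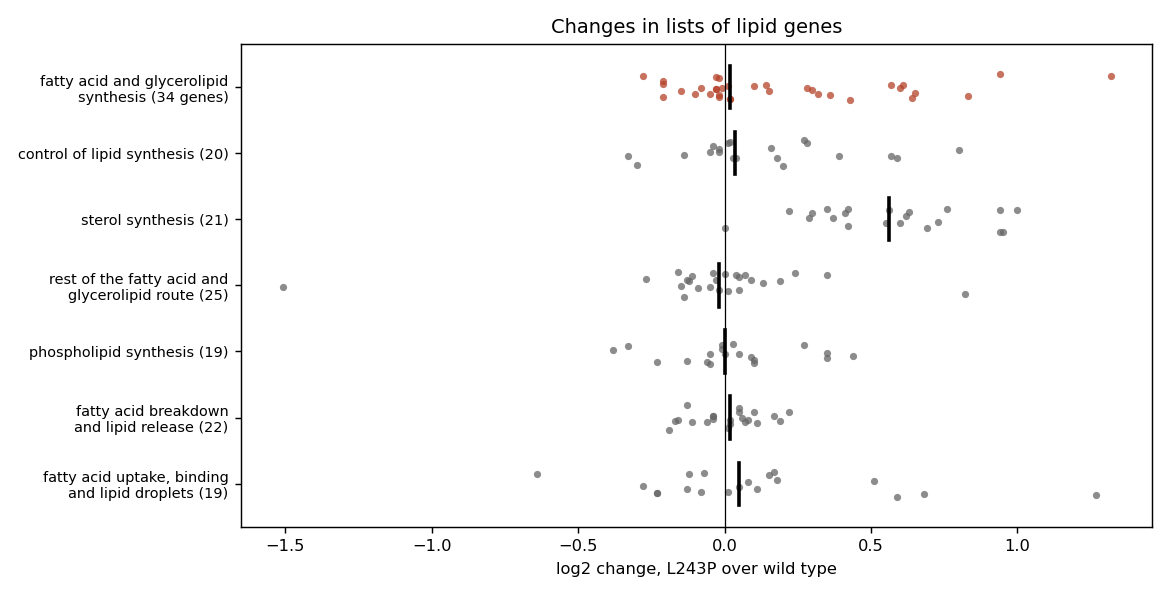
Log2 change of L243P over wild type for every measured gene (points) of the 34 members and of 6 further lists of lipid genes, with the median of each list as a black bar and the number of genes in brackets. The sterol list has its median at 0.56, and the other lists have theirs between -0.02 and 0.05.

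The arrays behind these values were alike in scale, with median intensities of 46 to 50, between 24.0% and 25.7% of probe sets under 16, and correlations of log2 intensity from 0.990 to 0.995. The number of arrays limits the precision. ANPEP, which encodes CD13/APN, was at 8447 and 9103 in wild type and at 6439 and 7122 in L243P, and its probe set does not tell the 2 forms apart. Of 13 measured glioma cell markers, 8 were above the array median on all arrays, among them VIM, CD44, EGFR, CHI3L1 and SPP1. S100B, SOX2, FABP7, OLIG2 and AQP4 were not, and GFAP, also listed, was not found among the named genes. No marker was at 0, and the 13 summed to 13430 and 14815 in wild type and 16454 and 17979 in L243P. Within these sums CHI3L1 made up 1161 and 1081 in wild type and 4186 and 4636 in L243P. CHI3L1, a secreted glycoprotein, rose from a mean of 1121 to 4411 (limma, adjusted p = 0.0025) and SPP1, osteopontin, fell from 2401 to 1558 (adjusted p = 0.036), both named after their values were seen. The part of these markers in the results was not tested. Markers of adipocytes, the cell type best known for this route, summed to 371 to 386 in wild type and 363 to 384 in L243P over 8 genes, with CIDEC and CFD above the array median on all arrays. Hepatocyte markers summed to 176 to 181 and 154 to 177 over 8 genes, and leukocyte and endothelial markers to 125 to 134 and 115 to 124 over 6 genes. The sums of these other cell types were within or below the wild-type range in L243P, although PPARG, 1 of the 8 adipocyte markers and also on the list of control genes, was higher in both L243P arrays. Its part in the results was not tested.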

How the data were processed

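Intensities of 4 Affymetrix Human Gene ST arrays were taken from the authors' deposited table. According to the authors' deposited description, Rosetta Resolver's RMA did the background correction, quantile normalization and summary of each probe set. RMA is also named in the submitters' processing notes, which give neither a version nor a genome build. The deposited values are intensities on a linear scale, rounded to whole numbers. The authors' deposited table also gives a signed fold change, p-values and a rank product pfp, the fold and pfp being treated as a score. The series matrix held the same values.

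RefSeq held 18253 of the 19607 usable names as a current or older symbol (GRCh38.p14, used for symbols, promoters and gene order). The brightest probe set stood for each of 19554 genes, and with 7978 unnamed probe sets 27532 rows were tested. Values were log2 transformed without further filter, and L243P was compared with wild type with limma 3.58.1 (R 4.3.3; intensity trend, robust prior, Benjamini-Hochberg over all rows, threshold 0.05). Tested on 10 simulated sets of rounded arrays with 200 changed rows each, this fit of the L243P contrast over 27532 rows called 35.8% of 2-fold and 90.9% of 4-fold changes, with 15 false calls among 1282, and the default prior called 0.1% and 6.6%. The simulated noise was independent between arrays and drawn for all rows from 1 spread distribution fitted to the brighter rows. It held no shift shared by genes on an array, so the rates in the real data may differ. The members, lists, the choice of prior and the tests were made with earlier results of these data known. Named were all members, the genes of the lists that passed, the 3 of each list with the largest change at a mean intensity of at least 64, and SREBF1, SREBF2, INSIG1, MLX, MID1IP1, THRSP, GPAT3, GPAT4, CPT1A, PLIN2 and ANPEP; 1 further gene is not reported here. Neighbour values are medians over the 20 nearest measured genes. Groups share replicate numbers but no stated batch, so no block was used. Alternatives covered the prior, block, centring, offset, dim rows, probe sets, value table, neighbours and each array left out.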

Additional observations from a re-analysis of the deposited data

How the results depend on the processing

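None of the members passed in limma by default (12 at an unadjusted p under 0.05), and none passed with the default prior, the replicate block, an offset of 16, the mean of probe sets, the series matrix values, subtraction of the neighbour shift, or any 1 array left out. Median centring called 5 members (ACSS2, ACACA, FADS1, FADS2 and LPIN1, where 2.57% of all genes were called), and leaving out the dimmer 50% of rows called 2 of 27 (ACSS2 and FADS1, 3.68%). These 2 settings left 0 and 10 rows without spread within groups, against 836, and prior degrees of freedom of 18 and 5.23, against 3.95. Over all genes 189 were called (84 higher, 105 lower), 503 with median centring (281 and 222), 440 without the dimmer rows (257 and 183), 98 after the neighbour shift was subtracted, and 0 with the default prior (2781 at an unadjusted p under 0.05), with the replicate block (1637), with a crossed pairing added after the data were seen (2533) and without any 1 array (2310 to 3486). Same-numbered samples deviated in opposite ways (correlation -0.292 over 13766 rows), which does not settle whether the samples were paired. No block was used because no shared batch was stated. The members without overlap between groups numbered 20, where 38.0% of all named genes did not overlap. They numbered 18 with median centring, 19 without the dimmer 50% of rows and 26 to 27 with 1 array left out. Fewer arrays make a lack of overlap easier for any gene. The share of all named genes with 1 array left out was not computed, so the rise is not a result about the members. The median log2 change of the members was 0.15 without the dimmer rows and 0.07 to 0.13 with 1 array left out, against 0.02. With 1 array left out, the step medians were 0.19 to 0.39 for supply, 0.26 to 0.78 for synthesis, -0.12 to 0.03 for elongation, 0.47 to 1.16 for desaturation, -0.05 to 0.24 for activation and -0.04 to 0.06 for esterification. The lower values for synthesis and desaturation came from leaving out wild-type replicate 2, and the higher ones from leaving out wild-type replicate 1. The activation median was 0.36 without the dimmer rows and 0.10 after the neighbour shift, against 0.01.

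Signs turned in members with changes near 0 and in SCD5. With median centring ELOVL4 was at 0.01, ELOVL5 at 0.02, ELOVL6 at 0.00, ACSL1 at 0.01 and AGPAT2 at 0.01. After the neighbour shift was subtracted ELOVL5 was at 0.03, ELOVL6 at 0.01, SCD5 at 0.09, ACSL1 at 0.10, ACSL6 at 0.00, AGPAT2 at 0.03, DGAT1 at 0.04 and MLXIPL at 0.02. With 1 array left out the log2 change ranged from -0.25 to 0.08 for ME1, -0.27 to 0.31 for ELOVL2, -0.13 to 0.08 for ELOVL4, -0.05 to 0.03 for ELOVL5, -0.18 to 0.13 for ELOVL6, -0.10 to 0.07 for ACSL1, -0.21 to 0.24 for ACSL5, -0.15 to 0.05 for ACSL6, -0.18 to 0.11 for GPAM, -0.18 to 0.14 for AGPAT2, -0.04 to 0.08 for AGPAT3, -0.04 to 0.24 for DGAT2 and -0.20 to 0.13 for MLXIPL. The cause of these shifts was not tested.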

Other observations

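Lipid uptake and binding genes included one that passed. FABP3, a fatty acid binding protein best known from muscle, rose from 26 and 23 in wild type to 63 and 55 in L243P (log2 change 1.27, SE 0.15, limma, adjusted p = 0.037). FABP3 lay in the dimmer 50% of rows, where background was not separated from signal. FABP5, its epidermal relative, was at 111 and 126 in wild type and at 178 and 178 in L243P (log2 change 0.59, adjusted p = 0.10), DBI, which binds acyl-CoA, at 1179 and 988 and then 1578 and 1491 (log2 change 0.51, adjusted p = 0.12), and SLC27A3, an acyl-CoA synthetase of the transporter family, at 87 and 92 and then 151 and 136 (log2 change 0.68, adjusted p = 0.080). PLIN2, the lipid droplet coat protein named ADFP in the table, was at 13 to 17 on all 4 arrays. FABP7, the brain form, ran the other way, at 60 and 40 in wild type and at 34 and 29 in L243P (log2 change -0.64, adjusted p = 0.34), and was named after its values were seen. It too lay in the dimmer 50% of rows. Over the 19 measured genes of the list the median log2 change was 0.05. Both L243P arrays were higher for 5 (26.3%, against 17.0% of all named genes) and lower for 4 (21.1%, against 20.9%).

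Breakdown and phospholipid genes had median log2 changes of 0.02 and 0.00. Of 22 genes of fatty acid breakdown and lipid release, 0 passed in limma, and 0 were at an unadjusted p under 0.05, with log2 changes between -0.19 and 0.22. CPT1A, the gate of mitochondrial oxidation, was at 471 and 578 in wild type and at 541 and 590 in L243P, CPT2 had a log2 change of -0.19, and HADHB and HADH had 0.22 and 0.19. Of 19 phospholipid genes 0 passed, with 3 higher and 2 lower at an unadjusted p under 0.05 and log2 changes from -0.38 to 0.44. On each side, 6.75% of all named genes were under that unadjusted p. CHKA, the choline kinase of the phosphatidylcholine route, was at 153 and 160 in wild type and at 221 and 203 in L243P (log2 change 0.44, adjusted p = 0.16), PCYT1B had a log2 change of 0.35 (adjusted p = 0.30), and PTDSS1, a phosphatidylserine synthase, was at 918 and 1043 in wild type and at 773 and 735 in L243P (log2 change -0.38, adjusted p = 0.18).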
